A study of Mus musculus with 10 samples.

Results

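The expression of 10 pericyte marker genes (Rgs5, Cspg4, Kcnj8, Abcc9, Higd1b, Cox4i2, Trpc6, Lamc3, Mcam and Ndufa4l2) was compared between lungs with increased pulmonary blood flow (IncPBF) and sham lungs. The genes were chosen by name as commonly used markers of pericytes, among the 54532 genes of the deposited table. All 10 were found in the table, and all 10 passed the filter on low values (a mean of at least 0.5 FPKM over the 10 lungs), which 15388 genes passed. FPKM counts the fragments sequenced from a gene for each kilobase of it, scaled to the library.

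Both groups were wild-type C57/BL6 pups of either sex that had isoflurane anesthesia and a midline laparotomy at postnatal day 7 (P7), and whole lung was taken for bulk RNA-sequencing at P14. In the IncPBF group (5 lungs) a needle was passed from the abdominal aorta into the inferior vena cava to open a fistula, so that shunted blood raised the flow through the lung. The sham group (5 lungs) had the same operation without the puncture. Each lung is 1 sample, and the labels do not give its litter, its date of surgery or the animal's sex. Lungs carry their number in the deposited data, and the labels do not say whether the same number in both groups marks a pair.

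Pericytes are mural cells that sit on capillaries within the basement membrane shared with the endothelium, and in the lung they line the dense capillary net of the alveolar walls. Endothelial cells recruit them with PDGF-B, which acts on the receptor Pdgfrb, and pericytes return signals such as angiopoietin-1 to the endothelial receptor Tek. None of the marker genes belongs to pericytes alone. Rgs5 and Mcam are also made by vascular smooth muscle, Mcam by endothelial cells, and Trpc6 and Cspg4 by other cell types. Bulk RNA-sequencing measures all cells of the lung together, so that fewer cells of a type and less RNA per cell cannot be told apart.

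Of the 10 marker genes, 3 were higher in the IncPBF lungs (Rgs5, Kcnj8 and Mcam), 2 were lower (Lamc3 and Trpc6) and 5 did not pass the test (Cspg4, Abcc9, Higd1b, Cox4i2 and Ndufa4l2). A call means a Benjamini-Hochberg adjusted p under 0.05 in limma over all genes tested. By the same test 32.3% of all genes tested were called, 16.1% as higher and 16.2% as lower. The 2 groups of lungs did not overlap for 3 of the 10 marker genes (Rgs5, Kcnj8 and Lamc3), against 23.2% of all genes tested. The median log2 fold change (IncPBF minus sham, of FPKM + 0.1) was 0.10 over the marker genes and 0.01 over all genes tested.

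**Figure D1:**
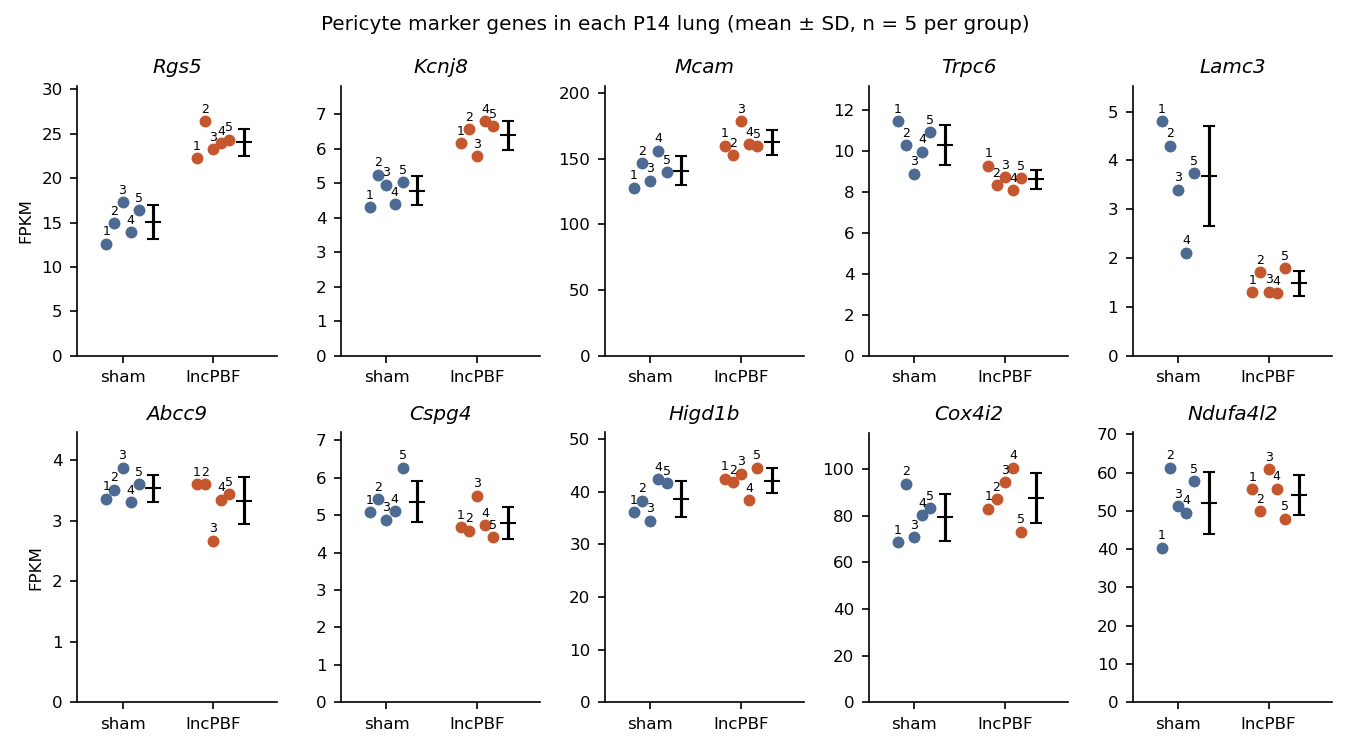
FPKM (vertical axes, linear, from 0) of the 10 pericyte marker genes in each sham lung (blue) and each IncPBF lung (orange), with the number of the lung above each point and the mean ± SD (n = 5) beside it. The groups do not overlap for Rgs5, Kcnj8 and Lamc3.

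The stretches around the start sites of 5 genes are shown. They are the called genes with a promoter in the RefSeq table (GRCm38.p6), which held 6 of the 10 marker genes, and Abcc9, the partner of Kcnj8 in 1 channel and its neighbour on chromosome 6. Each covers 250 bases before to 50 bases after the start, 5′ to 3′ in the direction of the gene. Capitals mark matches to the CArG box (bound by serum response factor), TGGGAA (the core of the RBPJ site), CATTCC (the TEAD site) and ACGTG (the core of the hypoxia response element), searched on both strands.
Rgs5, chr1:169655251-169655550, plus strand: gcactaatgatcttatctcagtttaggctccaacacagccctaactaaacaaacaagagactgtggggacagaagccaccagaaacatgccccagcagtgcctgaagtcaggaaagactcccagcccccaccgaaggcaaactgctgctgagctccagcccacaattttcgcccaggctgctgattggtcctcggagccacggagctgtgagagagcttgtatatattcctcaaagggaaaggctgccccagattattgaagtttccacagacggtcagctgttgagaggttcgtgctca
Kcnj8, chr6:142571565-142571864, minus strand: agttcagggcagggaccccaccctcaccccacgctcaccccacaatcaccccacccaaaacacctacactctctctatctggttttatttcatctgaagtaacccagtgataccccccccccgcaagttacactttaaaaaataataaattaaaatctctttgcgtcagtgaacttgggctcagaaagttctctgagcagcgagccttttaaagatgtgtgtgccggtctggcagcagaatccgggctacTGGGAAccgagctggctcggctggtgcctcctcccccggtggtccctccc
Abcc9, chr6:142702225-142702524, minus strand: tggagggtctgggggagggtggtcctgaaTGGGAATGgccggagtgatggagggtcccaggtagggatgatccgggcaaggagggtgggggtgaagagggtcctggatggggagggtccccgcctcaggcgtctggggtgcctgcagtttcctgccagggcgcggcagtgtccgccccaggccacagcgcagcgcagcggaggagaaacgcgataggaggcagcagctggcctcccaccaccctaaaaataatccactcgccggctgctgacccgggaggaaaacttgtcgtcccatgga
Trpc6, chr9:8543892-8544191, plus strand: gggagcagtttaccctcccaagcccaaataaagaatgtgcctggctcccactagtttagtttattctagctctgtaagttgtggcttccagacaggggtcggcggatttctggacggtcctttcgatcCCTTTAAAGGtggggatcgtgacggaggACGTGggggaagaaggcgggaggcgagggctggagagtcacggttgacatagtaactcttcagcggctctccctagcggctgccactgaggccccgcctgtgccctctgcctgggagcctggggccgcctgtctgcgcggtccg
Mcam, chr9:44134408-44134707, plus strand: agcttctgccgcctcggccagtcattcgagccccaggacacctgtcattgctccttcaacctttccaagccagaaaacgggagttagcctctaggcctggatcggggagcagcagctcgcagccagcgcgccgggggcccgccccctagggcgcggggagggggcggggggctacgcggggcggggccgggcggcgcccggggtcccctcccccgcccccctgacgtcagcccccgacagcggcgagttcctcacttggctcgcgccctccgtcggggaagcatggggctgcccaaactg
The Rgs5 and Mcam stretches held none of the 4 motifs, and neither did that of Cspg4, which was not called and is not shown. Kcnj8 had TGGGAA at the start site itself, in bases 251 to 256. In Abcc9 the sense TGGGAA in bases 30 to 35 overlapped an antisense CATTCC in bases 32 to 37. Trpc6 had a CArG box in bases 129 to 138, which begins 122 bases before the start and reads as a CArG box on both strands, and ACGTG in bases 157 to 161. Among 32851 promoters of the same length, 1.63% held a CArG box, 25.6% TGGGAA, 14.7% CATTCC and 19.6% ACGTG. These matches describe the letters only, and binding was not measured.

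The tissue matched its label. Sftpc, the surfactant protein of alveolar type 2 cells, ranged from 9583 to 14074 FPKM over the 10 lungs, and Ager of alveolar type 1 cells from 565 to 983 FPKM (both genes were chosen after their values were seen). The lungs held 16103423 to 20318525 fragments on genes, and 1 fragment on a gene of 1 kb was worth 0.0482 to 0.0580 FPKM. Xist, which silences an X chromosome in female cells, was 52.4 to 66.5 FPKM in 4 of the IncPBF lungs, but 0.0144 FPKM in IncPBF lung 1 and no more than 0.0770 FPKM in any sham lung. Ddx3y of the Y chromosome reached 21.8 to 24.6 FPKM in sham lungs and 18.6 FPKM in IncPBF lung 1, against 0.00926 FPKM or less in the other 4. Sex by these genes and surgery are therefore almost the same split, and only IncPBF lung 1 separates them. With log2 Xist as a covariate 741 genes were called in place of 4970, and none of the 10 marker genes. Of these, 3 had an unadjusted p under 0.05. Since the covariate and surgery are almost the same split, the group term of this fit rests mostly on IncPBF lung 1. Such a fit can miss real differences, so a call lost in it, here and below, does not tell sex from surgery. The share of the called differences that goes with sex was not tested beyond this fit. The values of IncPBF lung 1 given beside the results are not separate evidence, since the fit rests mostly on them.

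Levels per length differed widely among the marker genes. In the sham lungs the order ran from Mcam (141 ± 11.1 FPKM, SD, n = 5) through Cox4i2 (79.3 ± 10.1), Ndufa4l2 (52.0 ± 8.05), Higd1b (38.6 ± 3.42), Rgs5 (15.0 ± 1.89), Trpc6 (10.3 ± 0.978), Cspg4 (5.35 ± 0.546), Kcnj8 (4.79 ± 0.414) and Lamc3 (3.67 ± 1.02) to Abcc9 (3.53 ± 0.224). Neighbours whose sham ranges overlapped were Ndufa4l2 and Higd1b, Cspg4 and Kcnj8, Kcnj8 and Lamc3, and Lamc3 and Abcc9. Mcam was above 98.7% of all genes tested in mean FPKM, and Lamc3 above 30.4%. The coefficient of variation between lungs of a group ran from 5.27% to 27.9%, and for all 10 genes it was above that of fragment counting alone (1.03% to 6.13%) in both groups. The counting value treats fragments as independent molecules, which they are not without molecular identifiers. The sham lungs varied more than the IncPBF lungs in 9 of the 10 genes, the exception being Abcc9. The share of all genes with this order was not computed, so the count is not read as a trait of the marker genes.

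Rgs5 (ENSMUSG00000026678, chromosome 1, 169655501 to 169695813, plus strand; positions here and below are those of the deposited table) encodes a regulator that shortens G protein signaling and is among the most used pericyte markers. It was 22.2, 26.4, 23.3, 23.9 and 24.3 FPKM in IncPBF lungs 1 to 5, and 12.6, 15.0, 17.3, 13.9 and 16.4 FPKM in sham lungs 1 to 5. Every IncPBF lung was above every sham lung, IncPBF lung 1 included. The means were 24.0 ± 1.54 and 15.0 ± 1.89 FPKM (SD, n = 5 each), a ratio of 1.60. The log2 fold change was 0.68 (SE 0.0846, adjusted p = 0.000202), higher than that of 94.2% of all genes tested. With log2 Xist as a covariate it was 0.56 (adjusted p = 0.0564).

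Rgs4, the paralogue of Rgs5 with a like action on G proteins, went the other way. It was 9.71 to 11.5 FPKM in the IncPBF lungs against 11.8 to 15.6 FPKM in the sham lungs, a log2 fold change of −0.42 (SE 0.0825, adjusted p = 0.00301). The ratio of Rgs5 to Rgs4 within a lung therefore ran from 2.11 to 2.72 in the IncPBF lungs against 0.811 to 1.39 in the sham lungs, with no overlap. The log2 ratio differed by 1.10 (two-sided exact permutation test, p = 0.00794, the smallest that 5 lungs against 5 can give). Each gene separated the groups on its own, in opposite directions, so their ratio could only separate them too. This p-value is therefore not separate evidence. With log2 Xist as a covariate Rgs4 was at −0.44 (adjusted p = 0.121).

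Kcnj8 and Abcc9 encode the pore (Kir6.1) and the regulatory subunit (SUR2) of the ATP-sensitive potassium channel of vascular mural cells. Both lie on the minus strand of chromosome 6, Kcnj8 (ENSMUSG00000030247) at 142564837 to 142571614 and Abcc9 (ENSMUSG00000030249) at 142587862 to 142702315, with 16248 bases between them. Kcnj8 was 6.17, 6.58, 5.78, 6.80 and 6.65 FPKM in IncPBF lungs 1 to 5, and 4.31, 5.25, 4.96, 4.39 and 5.03 FPKM in sham lungs 1 to 5. The lowest IncPBF lung stood above the highest sham lung. Kcnj8 rose by 0.41 on the log2 scale (SE 0.0728, adjusted p = 0.00169), measured from 197 to 352 fragments per lung. It was 0.37 with log2 Xist as a covariate (adjusted p = 0.139).

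Abcc9 did not follow its neighbour. It was 3.60, 3.60, 2.67, 3.35 and 3.44 FPKM in IncPBF lungs 1 to 5, and 3.37, 3.51, 3.88, 3.31 and 3.60 FPKM in sham lungs 1 to 5. The groups overlapped, and IncPBF lung 3 was the lowest of the 10. The log2 fold change was −0.09 (95% interval −0.28 to 0.11, adjusted p = 0.484). Of the exon bases of Abcc9, 158 of 8373 are shared with the antisense gene 5330439B14Rik, and reads from the pair cannot be told apart where strand is not counted. The ratio of Kcnj8 to Abcc9 within a lung was 1.71 to 2.16 in the IncPBF lungs against 1.28 to 1.49 in the sham lungs. Its log2 value differed by 0.50 without overlap (exact permutation p = 0.00794), so the RNA of the pore rose relative to that of its partner. Kcnj11 and Abcc8, the paralogues of these genes, had at most 10 and 3 fragments in any lung. The ratios to them did not pass 0.05 (exact permutation p = 0.278 and 0.492) and are not given, since such counts cannot carry a ratio.

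**Figure D2:**
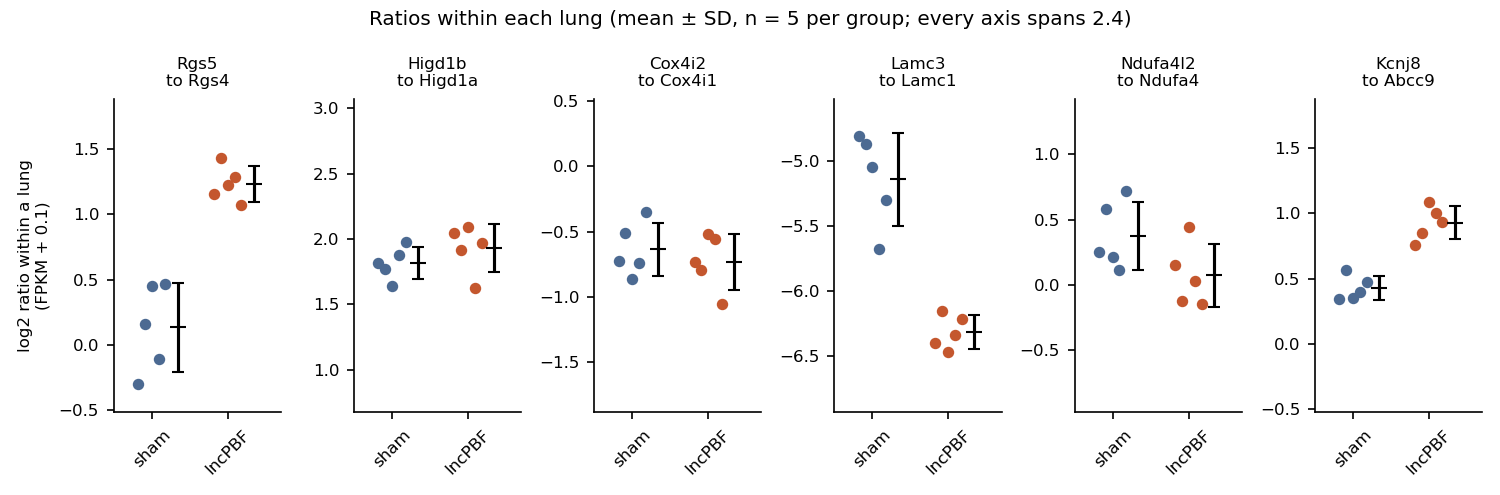
Log2 ratio of FPKM + 0.1 (vertical axes, each spanning 2.4) of 5 marker genes to a paralogue and of Kcnj8 to Abcc9 within each lung, for sham (blue) and IncPBF (orange), with the mean ± SD (n = 5) beside the points. The groups do not overlap for Rgs5 to Rgs4, Lamc3 to Lamc1 and Kcnj8 to Abcc9.

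Trpc6 (ENSMUSG00000031997, chromosome 9, 8544142 to 8680741, plus strand) encodes a cation channel opened by diacylglycerol that lets calcium into contractile cells. It was 9.29, 8.34, 8.73, 8.09 and 8.68 FPKM in IncPBF lungs 1 to 5, and 11.5, 10.3, 8.89, 9.98 and 10.9 FPKM in sham lungs 1 to 5. IncPBF lungs 2 to 5 were below every sham lung, while IncPBF lung 1 lay above sham lung 3. The log2 fold change was −0.25 (SE 0.0708, adjusted p = 0.0196). The call was lost without IncPBF lung 4 (adjusted p = 0.0509), and the value was −0.13 with log2 Xist as a covariate (adjusted p = 0.578).

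Lamc3 (ENSMUSG00000026840, chromosome 2, 31887291 to 31946539, plus strand) encodes the laminin gamma 3 chain of basement membranes. It was 1.31, 1.71, 1.32, 1.28 and 1.79 FPKM in IncPBF lungs 1 to 5, and 4.80, 4.30, 3.40, 2.11 and 3.74 FPKM in sham lungs 1 to 5. Every IncPBF lung, lung 1 included, was below every sham lung, and sham lung 4 was nearest to them. Lamc3 had the largest change of the 10 genes. The ratio of the means was 0.404 and the log2 fold change −1.22 (SE 0.197, adjusted p = 0.00101), below that of all but 1.09% of genes tested. With log2 Xist as a covariate the value was −1.33 (adjusted p = 0.0590). Of the 6091 exon bases of Lamc3, 382 are shared with the antisense gene Gm13441.

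Lamc1, the gamma chain of most laminins, was 112 to 140 FPKM in the IncPBF lungs against 113 to 152 FPKM in the sham lungs. Its log2 fold change was −0.05 (adjusted p = 0.713), and turned to 0.03 when each lung was scaled to an equal total. The ratio of Lamc3 to Lamc1 was 0.0105 to 0.0133 in the IncPBF lungs against 0.0187 to 0.0349 in the sham lungs. The log2 ratio differed by −1.17 without overlap (exact permutation p = 0.00794).

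Mcam (ENSMUSG00000032135, chromosome 9, 44134469 to 44142727, plus strand) encodes the adhesion molecule CD146 of mural and endothelial cells. It was 160, 153, 178, 161 and 159 FPKM in IncPBF lungs 1 to 5, and 128, 146, 133, 156 and 140 FPKM in sham lungs 1 to 5. IncPBF lung 2 was below sham lung 4, and the other IncPBF lungs were above every sham lung. Its log2 fold change was 0.21 (SE 0.0670, adjusted p = 0.0351). This is the weakest of the 5 calls. It was lost without any 1 of IncPBF lungs 1, 3, 4 and 5 or sham lungs 1, 3 and 5 (adjusted p from 0.0551 to 0.0799), and the value was 0.19 with log2 Xist as a covariate (adjusted p = 0.420).

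Cspg4 (ENSMUSG00000032911, chromosome 9, 56865033 to 56899870, plus strand) encodes the proteoglycan NG2 of the pericyte surface. It was 4.67, 4.58, 5.51, 4.73 and 4.42 FPKM in IncPBF lungs 1 to 5, and 5.07, 5.42, 4.88, 5.11 and 6.26 FPKM in sham lungs 1 to 5. IncPBF lung 3 lay among the sham lungs and the other 4 were below them. The log2 fold change was −0.16 (95% interval −0.34 to 0.02, adjusted p = 0.169). NG2 RNA was thus not shown to differ, and the interval leaves room for a fall as large as that of Trpc6.

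The remaining 3 genes encode small mitochondrial proteins linked to the response to low oxygen, and each has a paralogue in use in most cells. Higd1b (chromosome 11, 102835849 to 102838040) was 42.4, 41.8, 43.4, 38.3 and 44.5 FPKM in IncPBF lungs 1 to 5, and 36.0, 38.3, 34.5, 42.4 and 41.6 FPKM in sham lungs 1 to 5. Its log2 fold change was 0.13 (95% interval −0.02 to 0.28, adjusted p = 0.171), but it passed the test when each lung was scaled to an equal total (0.21, adjusted p = 0.0227) and in limma-voom on the recovered fragments (0.21, adjusted p = 0.0279). IncPBF lungs 1, 3 and 5 were above every sham lung, and IncPBF lung 4 was below 2 of them.

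Cox4i2 (chromosome 2, 152754173 to 152765037), the oxygen-regulated form of a cytochrome c oxidase subunit, was 82.9, 86.9, 94.4, 100.5 and 73.0 FPKM in IncPBF lungs 1 to 5, and 68.6, 93.7, 70.8, 80.1 and 83.2 FPKM in sham lungs 1 to 5. The groups overlapped over most of their range. Cox4i2 had a log2 fold change of 0.14 (95% interval −0.08 to 0.37, adjusted p = 0.314).

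Ndufa4l2 (chromosome 10, 127514967 to 127517154), an inducible relative of the respiratory subunit Ndufa4, was 55.7, 49.9, 61.0, 55.8 and 48.0 FPKM in IncPBF lungs 1 to 5, and 40.4, 61.3, 51.3, 49.5 and 57.7 FPKM in sham lungs 1 to 5. All IncPBF lungs lay within the sham range. For Ndufa4l2 the log2 fold change was 0.06 (95% interval −0.17 to 0.30, adjusted p = 0.682), and it turned to −0.02 without sham lung 1.

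Their paralogues were also measured. Cox4i1 rose by a log2 value of 0.24 (SE 0.0754, adjusted p = 0.0313) and Ndufa4 of 0.37 (SE 0.0939, adjusted p = 0.0122), while Higd1a had 0.01 (adjusted p = 0.885). Neither rise was called with log2 Xist as a covariate (Cox4i1 0.17, adjusted p = 0.519, and Ndufa4 0.32, adjusted p = 0.315). Within a lung, the log2 ratio of Higd1b to Higd1a differed by 0.11 (exact permutation p = 0.278), that of Cox4i2 to Cox4i1 by −0.10 (p = 0.476) and that of Ndufa4l2 to Ndufa4 by −0.30 (p = 0.0952). None of these 3 ratios passed 0.05. Apart from the ratios of the marker genes to Pdgfrb used below, 9 ratios were computed and 6 are given. Their p-values are not adjusted over the 9, and those of the ratios to Pdgfrb are not adjusted either.

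**Figure D3:**
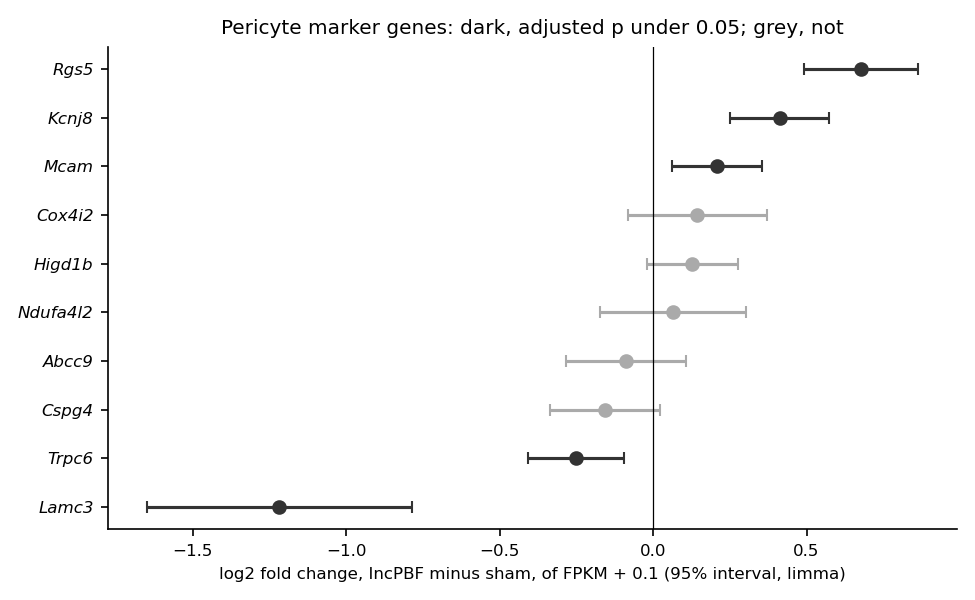
Log2 fold change (horizontal axis, IncPBF minus sham, of FPKM + 0.1) of the 10 marker genes with the 95% interval from limma, ordered by size. Dark points have an adjusted p under 0.05, from Lamc3 at −1.22 to Rgs5 at 0.68, and the grey intervals cross 0.

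Other genes of mural cells were followed as a list of 16, all of which passed the filter. Of these, 3 were higher, 2 were lower and 11 were not called, with a median log2 fold change of −0.04 (0.04 when each lung was scaled to an equal total) against 0.01 over all genes tested. By the same test 32.3% of all genes tested were called, 16.1% as higher and 16.2% as lower. These shares stand beside the counts of this list and of every list below. No list was tested as a set. Pdgfrb, the receptor by which pericytes are recruited, was 74.5 to 89.5 FPKM in the IncPBF lungs against 71.6 to 102 FPKM in the sham lungs. Its log2 fold change was −0.09 (adjusted p = 0.497), so a change of this defining gene was not shown. Among the genes that rose were Des, the intermediate filament desmin of muscle and mural cells (0.74, adjusted p = 0.00149), Enpep, the aminopeptidase A of the mural cell surface (0.42, adjusted p = 0.00223), and Postn, a matrix protein also made by fibroblasts (0.25, adjusted p = 0.00510). The groups did not overlap for any of these 3, and for 4 of the 16 genes in all, against 23.2% of all genes tested. The genes that fell were Anpep, the surface aminopeptidase CD13 (−0.53, adjusted p = 0.000914), and Notch3, the Notch receptor of mural cells (−0.39, adjusted p = 0.0364). The Notch3 call was lost with an equal total per lung (adjusted p = 0.0516) and without IncPBF lung 1 (adjusted p = 0.0614). None of the 16 genes was called with log2 Xist as a covariate, and Des was then at 0.38 (adjusted p = 0.277). Summed FPKM of the list was 650 to 712 in the IncPBF lungs against 585 to 697 in the sham lungs.

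The signals exchanged by endothelial cells and pericytes formed a list of 13 genes, of which 2 were higher, 5 lower and 6 not called (median −0.19). The largest fall was that of Angpt1, the Tek ligand made by mural and other mesenchymal cells, from 25.4 to 32.6 FPKM in the sham lungs to 16.7 to 20.9 FPKM in the IncPBF lungs (log2 fold change −0.65, adjusted p = 0.000202). Its receptor Tek fell by 0.47 on the log2 scale (adjusted p = 0.00223), again without overlap. Hbegf, a growth factor of the EGF family, was lower by −0.36 (adjusted p = 0.0234). Of the 2 rises, Cdh2, the N-cadherin of contacts between the 2 cell types, had 0.34 (adjusted p = 0.0141), and Angpt2, the Tek antagonist of activated endothelium, 0.31 (adjusted p = 0.0368), a call lost without IncPBF lung 1 (adjusted p = 0.0751). The 2 calls of the list with log2 Xist as a covariate were Angpt1 (−0.65, adjusted p = 0.0343) and Angpt2, which was then at 0.60 (adjusted p = 0.0487). Pdgfb, the ligand of Pdgfrb, was 48.7 to 56.7 FPKM in the IncPBF lungs against 48.9 to 66.9 FPKM in the sham lungs (−0.09, adjusted p = 0.508).

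Because 3 of the marker genes are linked to low oxygen, 12 target genes of the hypoxia-inducible factors were followed. Of these, 4 were higher, 4 lower and 4 not called (median −0.19). Egln3, an oxygen-sensing prolyl hydroxylase, was 2.15 to 3.58 FPKM in the IncPBF lungs against 0.398 to 0.798 FPKM in the sham lungs (1.99, adjusted p = 3.2e-05). Ankrd37 (0.51, adjusted p = 0.0214) and the lactate dehydrogenase subunit Ldha (0.36, adjusted p = 0.000886) also rose, and Ankrd37 was not called without IncPBF lung 1 (adjusted p = 0.0519). Bnip3, a mitophagy receptor, fell by 0.88 on the log2 scale (adjusted p = 0.000125), Ndrg1 by 0.41 (adjusted p = 0.00530) and the growth factor Vegfa by 0.31 (adjusted p = 0.00165). The called genes of the list were thus split evenly between rises and falls in this fit. With an equal total per lung, and in limma-voom on the recovered fragments, 4 were higher and 3 lower. Without IncPBF lung 1, 3 were higher and 3 lower. The Xist covariate left 1 gene higher (Egln3) and 2 lower (Bnip3, and Ndrg1 at −0.65), while Ankrd37 was at 0.79 (adjusted p = 0.0947).

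Markers of other cell types moved with the groups as well. Of 9 smooth muscle genes, 5 rose and none fell (median 0.51), with a summed level of 365 to 644 FPKM in the IncPBF lungs against 164 to 294 FPKM in the sham lungs. They were Actg2 (1.65, adjusted p = 0.00234), the smooth muscle actin Acta2 (1.57, adjusted p = 0.000783), the smooth muscle myosin Myh11 (0.73, adjusted p = 0.00665), Smtn (0.51, adjusted p = 0.00317) and Mylk (0.13, adjusted p = 0.0405, lost without IncPBF lung 1 at 0.0699). Acta2 alone was 213 to 409 FPKM in the IncPBF lungs against 60.3 to 156 FPKM in the sham lungs, a large part of the sum. Of the 4 genes not called, Cnn1 was at 1.13 with wide spread (SE 0.643, adjusted p = 0.205). Tagln was at 0.32 (adjusted p = 0.0919, or 0.0431 with an equal total per lung). Lmod1 (0.01, adjusted p = 0.967) and Synpo2 (−0.005, adjusted p = 0.972) were flat. None of the 9 was called with log2 Xist as a covariate, and Acta2 was at 1.01 (adjusted p = 0.162), Actg2 at 0.89 (adjusted p = 0.320), Myh11 at 0.39 (adjusted p = 0.449) and Smtn at 0.34 (adjusted p = 0.292). Rgs5 and Mcam rose with them in the test without a covariate, and the part of smooth muscle in the rise of these 2 genes was not tested. Relative to Pdgfrb in the same lung, an alternative chosen after the data were seen, Rgs5, Kcnj8, Mcam and Higd1b were higher and Lamc3 was lower.

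Of 8 endothelial genes, 1 rose and 4 fell (median −0.20), and their summed level was 1031 to 1121 FPKM in the IncPBF lungs against 1085 to 1374 FPKM in the sham lungs. The falls were those of the adrenomedullin co-receptor Ramp2 (−0.45, adjusted p = 0.000741), the junction genes Cdh5 (−0.44, adjusted p = 0.00699) and Pecam1 (−0.37, adjusted p = 0.00405), and the transcription factor Erg (−0.24, adjusted p = 0.0187). Egfl7 rose (0.28, adjusted p = 0.0301), a call lost without IncPBF lung 1 (adjusted p = 0.0688), and the junction gene Cldn5 (0.09), Emcn (0.01) and Kdr (−0.17) were not called. Mcam, which endothelial cells also make, thus moved with 1 of the 5 called endothelial genes and against 4. None of the 8 endothelial genes was called with log2 Xist as a covariate.

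Of 9 fibroblast genes 3 rose and 2 fell (median −0.03, or 0.05 with an equal total per lung). The rises were those of Dpt (0.48, adjusted p = 0.00109), Col14a1 (0.38, adjusted p = 0.0139) and the collagen gene Col1a1 (0.35, adjusted p = 0.0392). The PDGF receptor Pdgfra (−1.36, adjusted p = 9e-05) and Col13a1 (−0.27, adjusted p = 0.0364) fell, the latter not with an equal total per lung (adjusted p = 0.0700) or without IncPBF lung 1 (adjusted p = 0.0840). In the fit with log2 Xist 1 of the 9 was called, Pdgfra at −1.08 (adjusted p = 0.0350), and Col1a1 was at 0.11 (adjusted p = 0.782) and Col13a1 at −0.43 (adjusted p = 0.137). The fibroblast sum was 1047 to 1232 FPKM in the IncPBF lungs against 969 to 1143 FPKM in the sham lungs.

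Mesothelial genes moved in the direction of Lamc3. Of 4, 3 were tested and all 3 fell (Msln −0.88, adjusted p = 0.0125; Upk3b −1.27, adjusted p = 0.0250; Lrrn4 −1.76, adjusted p = 0.0107), and Wt1 was too low to test. None of the 3 was called with log2 Xist as a covariate (adjusted p = 0.344, 0.529 and 0.314), and Upk3b was at −0.81. Their sum was 19.5 to 43.4 FPKM in the IncPBF lungs against 38.5 to 98.0 FPKM in the sham lungs. The part of mesothelium or Pdgfra-positive fibroblasts in the level of Lamc3 was not tested. Of 6 Schwann cell genes 3 were tested and 2 fell (Mbp −0.33, adjusted p = 0.0154, and Erbb3 −0.49, adjusted p = 0.0109), none of them called with log2 Xist as a covariate, with a sum of 10.4 to 13.3 FPKM against 13.7 to 18.1 FPKM, while the defining factor Sox10 was at most 0.285 FPKM. No gene was called among the cardiac muscle genes (5 of 7 tested, sum 32.7 to 98.3 FPKM in the IncPBF lungs against 7.67 to 46.5 FPKM in the sham lungs) or the platelet genes (4 of 5 tested, 17.5 to 27.7 FPKM and 14.9 to 41.6 FPKM). Nppa of cardiac muscle and Gp1bb of platelets were at the floor, with at most 3 and 1 fragments in any lung.

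**Figure D4:**
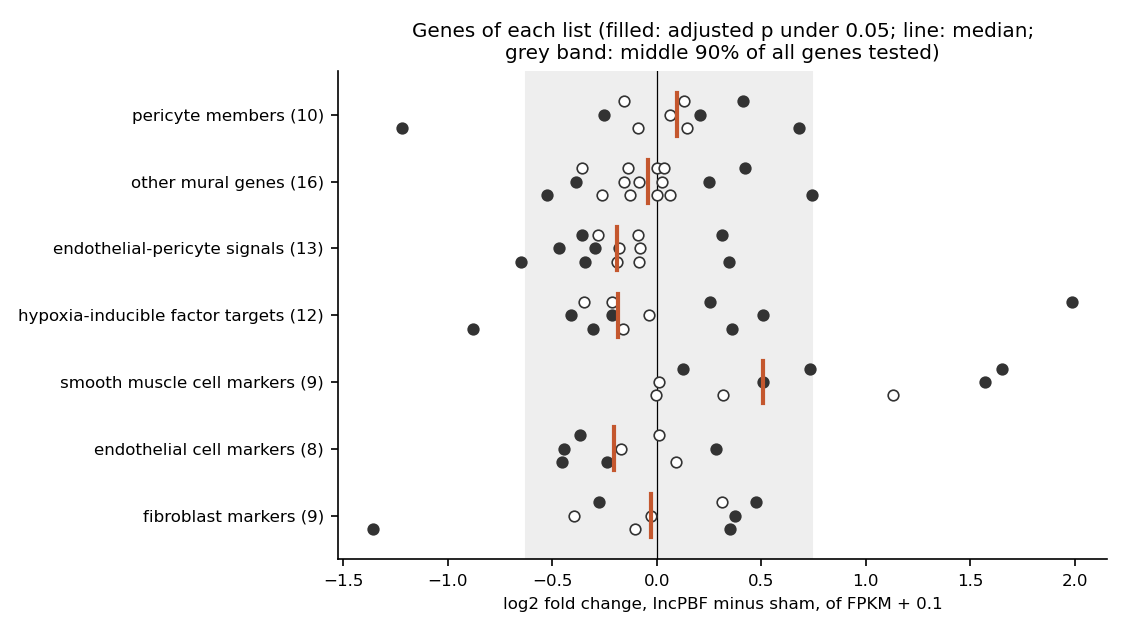
Log2 fold change (horizontal axis, IncPBF minus sham, of FPKM + 0.1) of the genes of 7 lists, with the number tested in brackets, filled points for an adjusted p under 0.05, a line at each median and a grey band over the middle 90% of all genes tested (−0.62 to 0.74). Of the 10 pericyte markers Lamc3 lies outside the band, beyond its lower end, as do Pdgfra, Bnip3 and Angpt1 of other lists. Beyond its upper end lie Egln3, the smooth muscle genes Actg2, Acta2 and Cnn1 (not called) and, narrowly, the mural gene Des.

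IncPBF lung 1, the lung with low Xist, is the only one in which surgery can be read apart from sex. It lay above all 5 sham lungs in Rgs5, Kcnj8, Mcam and Higd1b, below all of them in Lamc3 and Cspg4, and within their range in Trpc6, Abcc9, Cox4i2 and Ndufa4l2. For Rgs5 (22.2 FPKM against 23.3 to 26.4 FPKM in the other IncPBF lungs) it was the IncPBF lung nearest to the sham group, and for Kcnj8 and Lamc3 it lay inside the range of the other 4. This is 1 lung, so no separate test was made on it. The group term of the fit with Xist as a covariate rests mostly on this same lung. Its values and that fit are therefore not separate evidence.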

How the data were processed

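Whole-lung RNA of 5 IncPBF and 5 sham mice was sequenced by the authors as NEBNext libraries, from column-purified RNA according to the methods or Trizol RNA according to the labels. The authors deposited 1 table of FPKM, with gene positions and lengths. The submitters' notes list GRCm38, mm10, hg38 and Bowtie 0.12.2 without a role, and the counting tool and strand setting are not given in the sources used here. Positions were the same as in GENCODE M21 (GRCm38) for 53462 of 54409 shared genes (98.3%). The 5 IncPBF columns are abbreviated otherwise than in the sample titles and were matched by age and number, and the test between groups does not depend on which column has which number. No column of values was left unmatched.

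Fragments were recovered as FPKM times length over the step of each lung. By the rule used 100% of values were whole, within 0.01 or, for large counts, within a small share of the count. The largest counts pass this rule in any case. Genes averaging 0.5 FPKM or more entered the test as log2(FPKM + 0.1), which understates changes of low genes, with limma 3.58.1 (trend) in R 4.3.3, IncPBF against sham with no covariate, Benjamini-Hochberg adjusted over all 15388 genes. Each p-value measures the spread between these lungs. Ratios within a lung were compared by two-sided exact permutation over the 252 assignments of 10 lungs (numpy 2.4.6). Whole tables and figures were handled with pandas 2.3.3 and matplotlib 3.10.9, and the limma script was tested on simulated data.

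All 10 marker genes are named. From the other lists, also markers of other cell types, the called genes are named (of lists with more than 5, up to the 3 largest rises and 3 largest falls), with paralogues and uncalled genes that define a cell type. The marker genes and lists were chosen with earlier results of these data known. Alternatives were a pseudocount of 1 or 0.01, a minimum of 1 FPKM or no minimum, other scalings, the replicate block, limma without trend, limma-voom on the recovered fragments, log2 Xist as a covariate, exact tests per gene and each lung left out. The ratio to Pdgfrb was added after the data were seen. One result among the ratios is not reported here.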

Additional observations from a re-analysis of the deposited data

Results flagged for a closer look

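In the IncPBF group, lung 3 stood apart in 2 marker genes, high in one and low in the other. Cspg4 was 5.51 FPKM there and 4.42 to 4.73 FPKM in the other 4 lungs, and Abcc9 was 2.67 FPKM there and 3.35 to 3.60 FPKM in the others. Each was marked because the gap to the nearest lung exceeded Dixon's critical value as a share of the range (shares of 0.713 and 0.730). These were 2 of 20 groups of lungs tested, and chance alone marks about 1 in 20. Neither gene was called, with or without lung 3 (limma).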

How the results depend on the processing

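The values of the marker genes were recomputed under alternatives, 230 values in all, of which 208 kept their direction and their side of the threshold, 17 lost the call, 3 gained one and 2 turned. The exact permutation tests among these alternatives, also those of the ratio to Pdgfrb, were not adjusted. With log2 Xist as a covariate 0 marker genes were higher and 0 lower (741 genes called in limma, 3173 at an unadjusted p under 0.05), and Abcc9 turned to 0.026. In limma-voom on the recovered fragments 4 were higher and 1 lower, Trpc6 being lost (adjusted p = 0.0504), and the ratio to Pdgfrb also left 1 lower (Trpc6, exact permutation p = 0.0714). Leaving out each lung in turn gave 2 to 3 higher and 1 to 2 lower, and Ndufa4l2 ran from −0.023 to 0.13. Rgs5 (0.62 to 0.73), Kcnj8 (0.38 to 0.45) and Lamc3 (−1.40 to −1.11) kept their calls in each of these. Without a filter Mcam was not called (adjusted p = 0.0822). With an equal total per lung, 66.7% of all called genes were higher in place of 49.9%, and the median over all genes tested was 0.09. With the replicate block 2 marker genes were higher and 2 lower and 4872 genes were called. Mcam was lost there (adjusted p = 0.0674), but the numbers do not pair the lungs, since deviations of same-numbered lungs correlated at −0.067 to 0.085 and 2 of 5 lungs were closest to their own number. Of the ratios, 2 gained a p under 0.05 when a lung was left out, Higd1b to Higd1a (0.0397, exact permutation) and Ndufa4l2 to Ndufa4 (0.0317). Why the divisor differed was not tested, nor was the cause of the other shifts.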
